A study of Mus musculus with 6 samples.

Results

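The 9 B lineage development genes were followed in messenger RNA of mouse bone marrow hematopoietic stem cells, as the labels name the cells. They are all rows whose gene symbol was one of Dntt, Rag1, Ebf1, Pax5, Vpreb1, Igll1, Cd79a, Cd79b and Blnk, 9 of the 52550 genes in the files. The knockout (KO) libraries, 3 in number, came from mice of the genotype written VAV1crePpp2caf/f, in which the Vav1 promoter drives Cre recombinase in blood cells and both Ppp2ca alleles are floxed. The wild-type (WT) libraries, also 3, came from Ppp2caf/f mice, which carry the same floxed alleles and for which no Cre is named. Ppp2ca encodes a catalytic subunit of PP2A, a serine/threonine phosphatase. The sources used here do not give age, sex, pooling of animals or the surface markers by which the cells were isolated. They do not say either whether each library had an animal of its own, and p-values therefore cover the spread between these samples, which may be technical. The question put by the study was which genes Ppp2ca regulates in these cells.

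B cells arise in bone marrow by steps. Lymphoid-primed progenitors first switch on genes of V(D)J recombination, the cutting and joining of antigen receptor gene segments: Rag1 and Rag2 encode the recombinase that cuts the DNA, and Dntt encodes terminal deoxynucleotidyl transferase, which adds nucleotides at the joints. The transcription factors Ebf1 and Pax5 then commit the cell to the B lineage, the surrogate light chain of Vpreb1 and Igll1 pairs with the first heavy chain, and Cd79a, Cd79b and Blnk carry the signal of the pre-B cell and B cell receptors.

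In these libraries the earliest marker and a late adaptor were lower in KO, and the commitment factors were listed at 0 in both genotypes. Dntt and Blnk fell in KO, to 12.6% and 16.8% of their WT levels. Vpreb1, Igll1, Cd79a and Cd79b did not pass the test, although all 3 Cd79a values were below, and all 3 Igll1 values above, those of WT. Of the 9 genes, 6 passed the filter of at least 1 normalised read in at least 3 libraries. Of these 6, 2 were called lower and 0 higher (limma, Benjamini-Hochberg adjusted p below 0.05), where 13.0% of all 20136 tested genes were lower and 10.3% were higher, 23.3% in either direction. By unadjusted p below 0.05 no member was higher either, and edgeR and DESeq2 also called 0 higher. The median log2 fold change of the 6 tested members was −1.01, against −0.02 for all tested genes. Bulk values cannot tell fewer cells of a type from less RNA per cell, here and in all that follows.

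**Figure D1:**
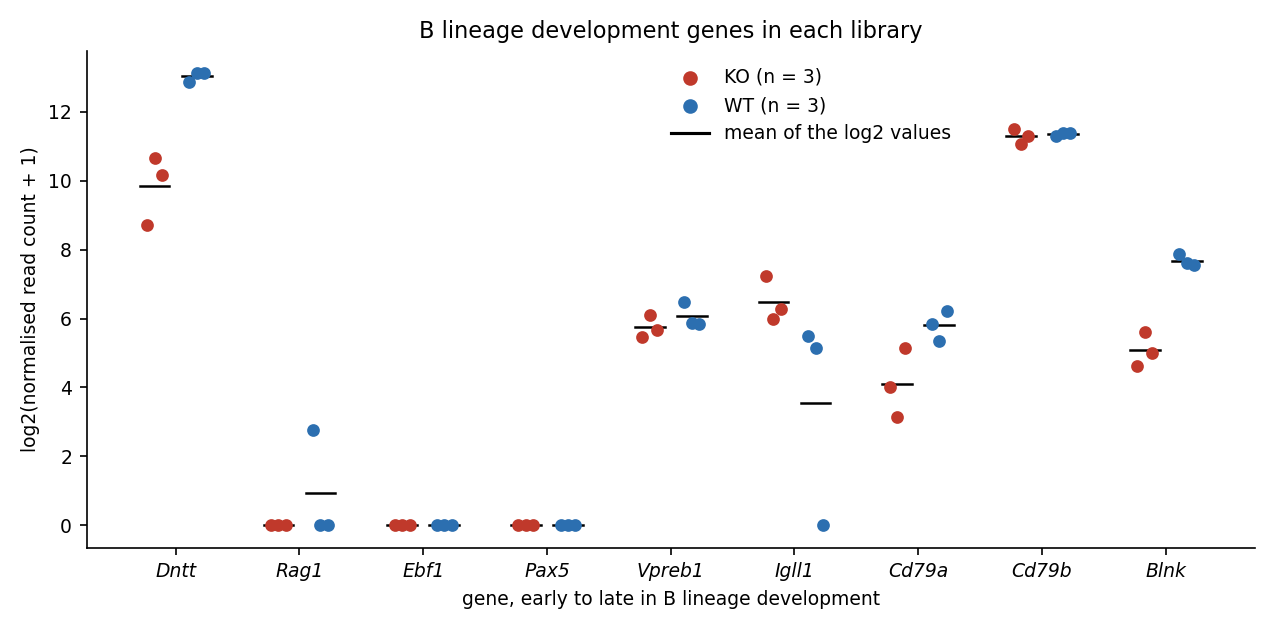
Each point is 1 library (KO left and red, WT right and blue, n = 3 each), on a log2(normalised read count + 1) axis, with bars at the mean of the log2 values. Dntt and Blnk separate by genotype, Cd79b sits at about the same height in both, and Ebf1 and Pax5 lie at 0 throughout.

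The values are read counts divided by 1 size factor per library, called normalised reads here, and fold changes were fitted on log2(normalised reads + 1), which understates changes of low genes. The libraries held 37951985 to 58692037 reads over genes. The floxed gene itself lay lower in each KO library than in any WT library: Ppp2ca averaged 23398 ± 862 in KO and 33176 ± 271 in WT (SD, n = 3 each), a log2 fold change of −0.50 (limma adjusted p = 0.00268), and the values cover the whole gene, not only the deleted part. Of 12 stem cell markers 11 fell in KO, with summed levels of 30710 to 49095 in KO and 86574 to 96343 in WT. Of 11 granulocyte-monocyte progenitor markers 10 rose, with sums of 1901800 to 2114920 in KO and 1280380 to 1512490 in WT. Mpo held the largest part of these sums, with means of 1237140 in KO and 954999 in WT. The progenitor sums were thus above the stem cell sums in WT as well as in KO. The share of stem cells in the libraries was not determined.

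Dntt had the highest level of the members in WT. It had 423, 1616 and 1148 normalised reads in KO, against 7480.1, 8903 and 8893 in WT (ENSMUSG00000025014.12, GRCm38 chromosome 19, 41029275 to 41059523, plus strand). Every KO library lay below every WT library, and on the log2 scale the KO libraries lay further apart from each other than the WT libraries did. The means were 1062 ± 601 in KO and 8425 ± 819 in WT (SD, n = 3 each). The log2 fold change was −3.18 ± 0.43 (SE), with a 95% interval of −4.18 to −2.19 and a limma adjusted p of 0.00258.

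Rag1, the catalytic part of the recombinase, was close to unread. It was listed at 0 in all KO libraries and at 5.85, 0 and 0 in WT replicates 1 to 3, and it was not tested (chromosome 2, 101638282 to 101649501, minus strand). A count of 0 allows up to 3 reads, or 2.59 to 3.22 normalised reads in a KO library, so a difference was not detectable at this depth. Its partner gene was read at a higher level: Rag2 had 5.36, 28.5 and 57.8 normalised reads in KO and 265.5, 351 and 441 in WT, with no overlap. Rag2 fell by 3.96 on the log2 scale (SE 0.75, limma adjusted p = 0.00898). The log2 fold change was −3.06 with KO replicate 1 left out and −4.66 with KO replicate 3 left out. Both recombinase genes lie within the longer gene B230118H07Rik, which averaged 1316 ± 79.8 in KO and 1495 ± 95.8 in WT (SD, n = 3 each) and was not called (log2 fold change −0.18, limma adjusted p = 0.285). It shares 6.07% of the exon bases of Rag2 and 1.21% of those of Rag1, and the sources used here do not say if reads were counted by strand, so reads in the shared bases cannot be told apart.

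Most other genes of lymphoid priming were lower in KO, as Dntt was. Of 14 listed and tested, 13 fell, 0 rose and Notch1 did not pass. The median of their log2 fold changes was −1.69. Flt3, the cytokine receptor of multipotent progenitors, had 5438, 4028 and 4894 normalised reads in KO and 14589, 14480.5 and 13955 in WT (log2 fold change −1.59, limma adjusted p = 0.000428). Il7r, the receptor chain for the cytokine on which early B cells depend, had 25.7, 30.5 and 11.2 in KO and 224.6, 139.9 and 175.0 in WT (−3.03, limma adjusted p = 0.00387). In both genes every KO library lay below every WT library. Ly6d, a surface marker of B-biased lymphoid progenitors, was listed at 0, 7.86 and 0 in KO and had 203.5, 156.1 and 108.8 in WT, which gave a fitted log2 fold change of −6.20 (−7.25 with KO replicate 2 left out). The transcription regulators Tsc22d1, Sox4 and Satb1 fell by 2.20, 1.78 and 1.45 on the log2 scale. Without limma's intensity trend 8 of the 14 were called lower, and 9 to 11 when 1 library was left out.

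The commitment factors could not be compared. Ebf1 (chromosome 11, 44617317 to 45008091, plus strand) and Pax5 (chromosome 4, 44524757 to 44710487, minus strand) stood at 0 in each of the 6 libraries, and no test was run. At these depths a listed 0 allows up to 2.59 to 3.22 normalised reads in KO and 2.84 to 3.51 in WT. Of the factors upstream of them, Tcf3 and Ikzf1 were read at high level and Foxo1 at a much lower one. Tcf3, the gene of the E2A proteins, averaged 5140.3 ± 276 in KO and 5487 ± 851 in WT (log2 fold change −0.08, limma adjusted p = 0.682). Ikzf1, the gene of Ikaros, averaged 5826 ± 102 in KO and 5826 ± 498 in WT (limma adjusted p = 0.984). Foxo1, which acts with the E proteins in early B cells, averaged 295 ± 35.5 in KO and 590 ± 64.5 in WT and fell by 0.997 on the log2 scale (limma adjusted p = 0.00686).

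Of 20 other B fate transcription factors, 18 were tested, 8 fell, 1 rose and 9 did not pass. The median of their log2 fold changes was −0.75. Spi1, the gene of PU.1, which serves both myeloid and B cell fates, was the one that rose. It averaged 17222 ± 1172 in KO and 11744.5 ± 1135 in WT (log2 fold change 0.55, limma adjusted p = 0.00699), and the call was lost without the intensity trend (limma adjusted p = 0.0517). Bcl11a, needed for B cell development, fell by 0.92 on the log2 scale, and Irf8, which acts in B and myeloid cells, fell by 1.05. Spib and Lef1 were low: Spib was at 0, 0 and 3.45 in KO and 42.1, 49.5 and 34.1 in WT. Lef1 was listed at 0 in every KO library and had 23.4, 8.56 and 11.4 in WT, at least 4.95-fold lower in KO against a floor of 3 reads per library. Between 5 and 8 of these factors were called lower when 1 library was left out, with 5 without KO replicate 3 and 5 without WT replicate 1.

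The surrogate light chain genes were read at a low level in both genotypes. Vpreb1 had 42.9, 67.8 and 50.04 normalised reads in KO and 87.7, 58.0 and 55.8 in WT (chromosome 16, 16868402 to 16870843, minus strand). The groups overlapped, and the log2 fold change of −0.32 (95% interval −1.19 to 0.55) did not pass (limma adjusted p = 0.601). Quantile normalization turned its sign, to 0.10. Top3b, a DNA topoisomerase gene on the opposite strand that averaged 5750 ± 266 in KO and 5585 ± 1003 in WT, shares 108 bases with Vpreb1, or 9.01% of its exon bases. The near-identical copy Vpreb2 was listed at 0 in all libraries, and the handling of reads that match both copies is not stated, so the Vpreb1 level is uncertain to that extent.

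Igll1 was the one member with higher values in every KO library. It had 149, 61.9 and 76.8 normalised reads in KO and 44.4, 34.3 and 0 in WT (chromosome 16, 16860671 to 16863985, minus strand). The groups did not overlap, as for 19.1% of all tested genes in that direction, yet the log2 fold change of 2.95 ± 1.36 (SE, 95% interval −0.21 to 6.10) did not pass (limma adjusted p = 0.164). The size rested on the WT replicate listed at 0: without WT replicate 3 it was 1.17. Of 13290 tested genes with a mean of at least 50, 41 were below 20% of both other libraries of the group in WT replicate 3, and 29 and 26 in WT replicates 1 and 2. Among KO libraries the counts were 76, 38 and 25, so WT replicate 3 did not have the highest count.

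The 2 surrogate light chain genes lie 4.42 kb apart on the minus strand. Their promoters are shown because the genes are neighbours that encode the parts of 1 protein complex. The windows run from 250 bases before to 50 after the RefSeq start (build GRCm38.p6), at chr16:16869206-16869505 and chr16:16863936-16864235, both on the minus strand. The Vpreb1 window lies wholly inside the gene span given above, which reaches beyond the RefSeq start. Capitals mark matches to the E-box CANNTG, bound by E2A, and to the Runx motif TGTGGT, on either strand. In Igll1 the Runx match is ACCACA, its reverse complement, and the other capitals are E-boxes.
Vpreb1: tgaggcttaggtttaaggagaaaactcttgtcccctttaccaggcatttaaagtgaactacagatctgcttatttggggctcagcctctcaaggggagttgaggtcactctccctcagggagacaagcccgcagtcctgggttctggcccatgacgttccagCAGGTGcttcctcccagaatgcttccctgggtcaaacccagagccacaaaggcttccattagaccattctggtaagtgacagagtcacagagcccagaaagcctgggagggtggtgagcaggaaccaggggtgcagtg
Igll1: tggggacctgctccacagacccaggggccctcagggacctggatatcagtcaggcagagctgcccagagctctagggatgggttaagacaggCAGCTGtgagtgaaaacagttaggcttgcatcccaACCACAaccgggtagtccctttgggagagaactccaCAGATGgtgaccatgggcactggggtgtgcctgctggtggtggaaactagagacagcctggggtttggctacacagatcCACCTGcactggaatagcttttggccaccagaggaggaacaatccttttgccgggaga

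Of the 9 promoter windows found in the RefSeq table for 8 members (Ebf1 has more than 1), 8 held an E-box, as did 72.3% of all 32851 promoter windows. A Runx match stood in 3 of the 9, against 16.8% of all windows, and an Ikaros match (TGGGAA) in 2, against 25.6%. The EBF motif (TCCC, any 2 bases, GGGA) was in 0 of the 9 and in 0.904% of all windows. These are descriptions of letters in short windows. Cd79b was not in the table.

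Cd79a and Cd79b, the paired signalling chains of the B cell receptor, stood at very different levels, and neither passed the test. Cd79a had 15.0, 7.86 and 34.5 normalised reads in KO and 56.1, 40.0 and 72.9 in WT (chromosome 7, 24897381 to 24902197, plus strand). All KO values were below all WT values, as for 21.7% of all tested genes, but the log2 fold change of −1.70 ± 0.60 (SE) did not pass (limma adjusted p = 0.0790). It passed without KO replicate 3 (−2.23, limma adjusted p = 0.0476) and in no other of 18 alternatives, and its log2 fold change was −0.87 with library quality weights. Cd79b had 2922, 2131 and 2547 in KO and 2522, 2670.2 and 2703 in WT (chromosome 11, 106311341 to 106314762, minus strand). The groups overlapped, and its log2 fold change was −0.07, with a 95% interval of −0.36 to 0.23 (limma adjusted p = 0.759). The interval excludes a change as large as that of Dntt or Blnk in either direction.

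Blnk, the adaptor that links the receptor's kinase Syk to Btk and phospholipase C gamma, fell. It had 23.6, 48.1 and 31.1 normalised reads in KO and 233.9, 193.2 and 185.5 in WT (chromosome 19, 40928927 to 40994535, minus strand). The highest KO value was well below the lowest WT value. The means were 34.3 ± 12.6 in KO and 204.2 ± 26.1 in WT (SD, n = 3 each). The log2 fold change was −2.59 ± 0.36 (SE), with a 95% interval of −3.42 to −1.76 and a limma adjusted p of 0.00279.

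**Figure D2:**
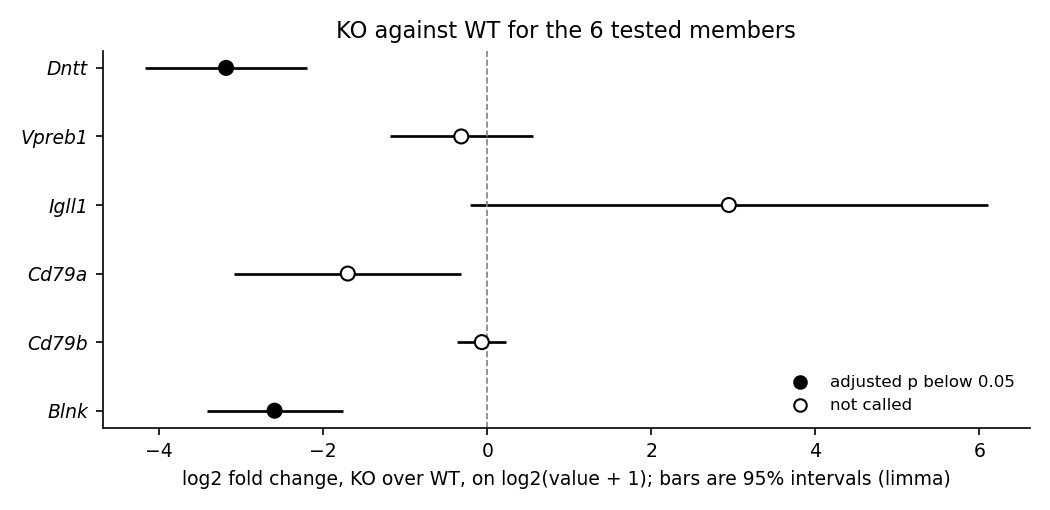
Points are log2 fold changes of KO over WT for the 6 tested members and bars are 95% intervals from limma (n = 3 per group), with filled points for adjusted p below 0.05. Dntt and Blnk lie below 0 with their intervals, the Cd79b interval is narrow around 0, and that of Igll1 reaches from −0.21 to 6.10.

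The partners of these chains did not move as one group. Of 24 other receptor and signalling genes, 21 were tested, 6 fell, 4 rose and 11 did not pass. Among all tested genes 13.0% were lower and 10.3% higher. The median of their log2 fold changes was −0.15. The kinase genes Syk and Btk averaged 3694 ± 252 and 5231 ± 853 in KO, and 4377 ± 170 and 5299 ± 431 in WT, and neither passed (limma adjusted p = 0.0882 and 0.905). For Syk all KO values were below all WT values, as for 21.7% of all tested genes, and it was called in 2 of 18 alternatives. Dapp1, an adaptor of B cell receptor signalling, fell to 34.8% of its WT level (log2 fold change −1.54), and Cd81, a tetraspanin found on many cell types, to 60.9% (−0.72). Ifitm1, an interferon-induced membrane protein gene, rose by 0.76 on the log2 scale, and Pik3ap1, the adaptor BCAP, rose by 0.82 (Pik3ap1 was named after its value was seen). The immunoglobulin genes fell further: Ighm, the mu heavy chain constant gene, to 16.9% of its WT level (−2.62), and Igkc, the kappa constant gene, to 2.89% (−5.11). The WT libraries lay far apart for Igkc, which had 753, 232 and 545 normalised reads in KO and 29557, 10624 and 12700.5 in WT. Vpreb3 was at 4.29, 6.88 and 12.1 in KO and 5.85, 12.4 and 0 in WT. It did not pass (limma adjusted p = 0.601).

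**Figure D3:**
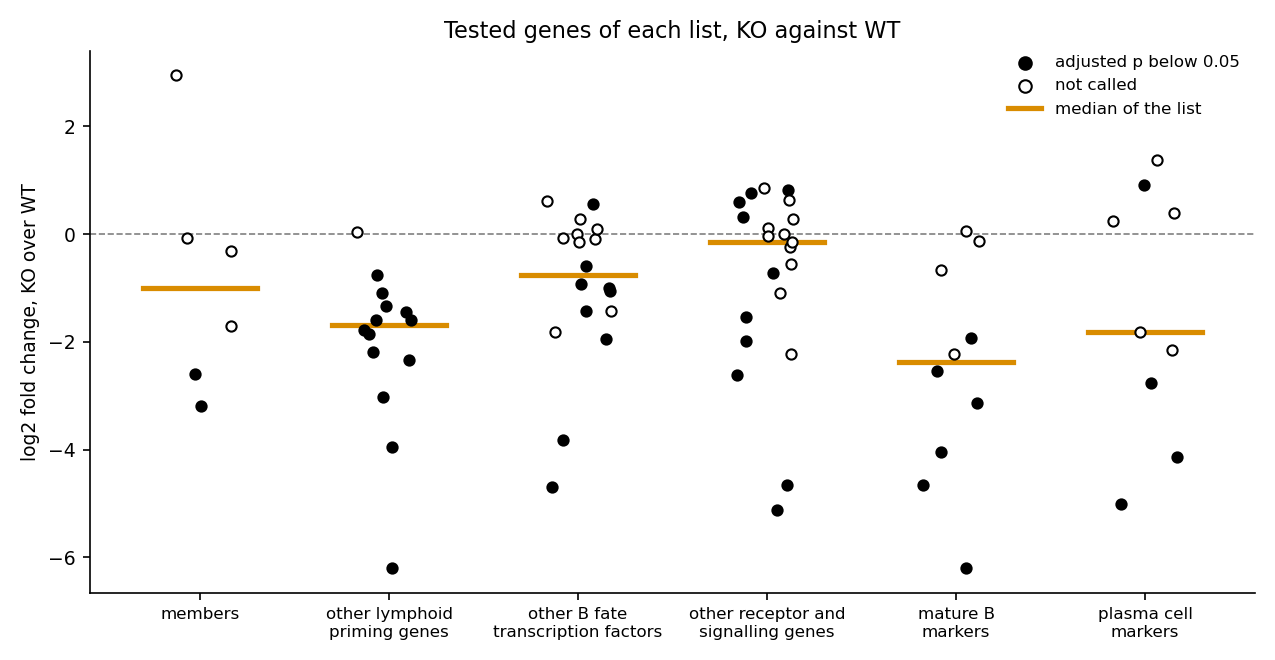
Each point is the log2 fold change of 1 tested gene, KO over WT, filled where the adjusted p was below 0.05, with an orange bar at the median of each list. Lymphoid priming genes lie below 0 except for Notch1, while receptor and signalling genes lie on both sides, as do plasma cell markers. Some genes stand in more than 1 list.

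Dntt and Blnk are neighbours on chromosome 19. They lie head to head, with Blnk on the minus and Dntt on the plus strand, and 34.7 kb between them. No other gene of the files lies in that gap. The nearest read neighbour beyond Blnk, the zinc finger gene Zfp518a, averaged 1340.1 in KO and 1283 in WT and was not called (log2 fold change 0.07, limma adjusted p = 0.807). Beyond it the cyclin gene Ccnj averaged 468 in KO and 278 in WT and rose (0.73, limma adjusted p = 0.0397), a call that was lost with any 1 library left out (limma adjusted p of 0.0588 to 0.104), with the replicate block (0.0715) and without the intensity trend (0.0655). Opalin and Tll2, on the far side of Dntt, were listed at 0 in all libraries. Neither Zfp518a nor Ccnj was called lower, and Opalin and Tll2 could not be tested. The flanking genes of all 3 pairs, and the alternatives run on them, were chosen after their values were seen. The flanks of the other pairs held called genes too. Beside Vpreb1, Top3b was not called (0.06), while Ppm1f, the next gene, averaged 9774 ± 431 in KO and 6061 ± 646 in WT (SD, n = 3 each) and rose by 0.69 on the log2 scale (limma adjusted p = 0.00315). Beyond Rag1, Traf6 was not called (0.20), while Prr5l, the next gene, had 0, 18.7 and 23.3 normalised reads in KO and 139, 128 and 106 in WT and fell (log2 fold change −3.99, limma adjusted p = 0.0401). The log2 fold change of Prr5l was −2.51, −4.66 and −4.81 with KO replicates 1, 2 and 3 left out in turn. Its call was lost with any 1 WT library left out (limma adjusted p of 0.0982 to 0.128), with quantile normalization (0.0652), a pseudocount of 0.1 (0.112) or no filter (0.0574), and without the intensity trend (0.106).

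The promoters of the called pair are shown because the genes share an intergenic gap and fell together. The windows are chr19:41029025-41029324 on the plus strand and chr19:40994172-40994471 on the minus strand (RefSeq, GRCm38.p6). The Blnk window lies wholly inside the gene span given above, which reaches beyond the RefSeq start, so it is not in the gap. Capitals mark E-boxes, 3 in each, and neither window held a match to the EBF, Ikaros or Runx motif.
Dntt: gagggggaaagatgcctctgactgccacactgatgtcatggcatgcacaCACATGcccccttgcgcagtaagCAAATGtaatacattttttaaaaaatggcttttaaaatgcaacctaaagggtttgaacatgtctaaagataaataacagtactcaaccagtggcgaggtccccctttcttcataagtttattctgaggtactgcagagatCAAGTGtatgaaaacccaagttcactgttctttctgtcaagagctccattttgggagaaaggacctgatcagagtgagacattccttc
Blnk: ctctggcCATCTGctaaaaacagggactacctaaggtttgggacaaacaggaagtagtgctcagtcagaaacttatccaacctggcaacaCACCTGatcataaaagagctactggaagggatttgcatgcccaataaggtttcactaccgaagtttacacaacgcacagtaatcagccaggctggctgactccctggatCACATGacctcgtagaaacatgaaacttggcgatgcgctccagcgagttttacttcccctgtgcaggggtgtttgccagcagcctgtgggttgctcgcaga

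**Figure D4:**
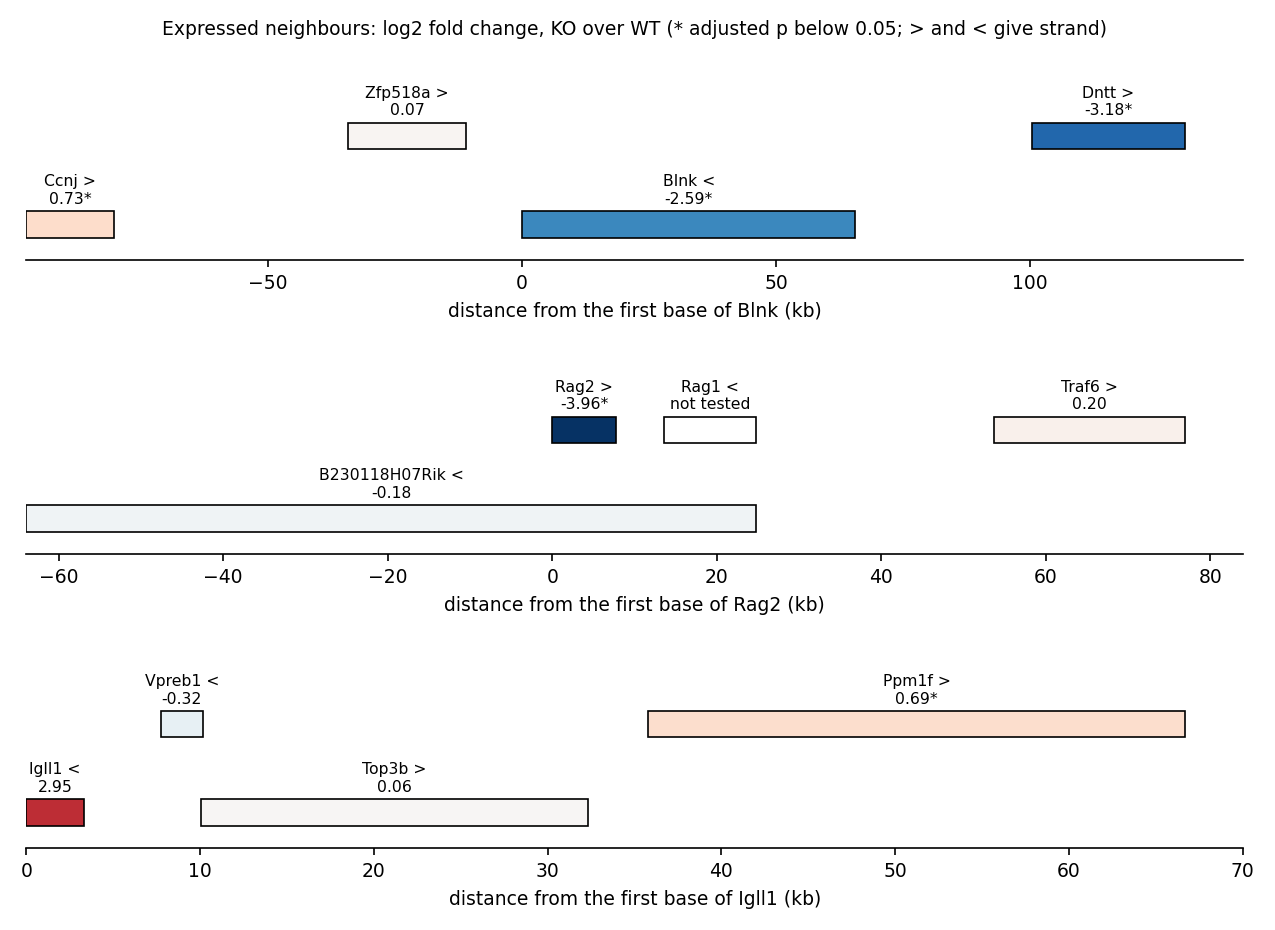
Members and a selection of neighbouring genes with reads around Blnk and Dntt (top), Rag2 and Rag1 (middle) and Igll1 and Vpreb1 (bottom). Genes are drawn to scale in kb from the first base of the locus. The log2 fold change of KO over WT stands above each bar, with an asterisk where the adjusted p was below 0.05. Blnk and Dntt stand beside Zfp518a at 0.07, and Rag2 lies within B230118H07Rik at −0.18. Prr5l, beyond Traf6, was called lower (−3.99) and is not drawn.

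The order of the members by level differed between the genotypes. Levels of different genes were compared as normalised reads per kb of exon (all annotated exons of the gene merged, GENCODE M21). In KO, Cd79b was first with 1770 per kb, followed by Dntt with 463, Vpreb1 with 44.7, Igll1 with 44.3, Cd79a with 13.1 and Blnk with 5.72. In WT, Dntt was first with 3676 per kb, followed by Cd79b with 1839, Vpreb1 with 56.0, Cd79a with 38.7, Blnk with 34.1 and Igll1 with 12.1. In every KO library Cd79b was above Dntt, and in every WT library Dntt was above Cd79b. Vpreb1 and Igll1 overlapped in KO, at 35.8 to 56.5 and 28.6 to 68.8 per kb. Cd79a and Blnk overlapped in KO too, at 5.39 to 23.7 and 3.94 to 8.03 per kb, and in KO replicate 2 Blnk was the higher. Cd79a overlapped both Vpreb1 and Blnk in WT, at 27.4 to 50.004 per kb, against 46.6 to 73.2 for Vpreb1 and 31.0 to 39.0 for Blnk.

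Differences taken within a library depend little on how libraries were scaled to each other. The log2 level of Igll1 minus that of Dntt was −1.50, −4.68 and −3.88 in KO and −7.36, −7.98 and −13.1 in WT, so every KO library was above every WT library. The mean difference of 6.13 gave p = 0.1 in a two-sided exact permutation test, the smallest this design allows, and was 4.32 without WT replicate 3. Cd79a minus Dntt was −4.73, −7.51 and −5.02 in KO and −7.03, −7.76 and −6.91 in WT. These overlapped, and the difference of 1.48 gave an exact permutation p of 0.3. Benjamini-Hochberg adjustment over these 2 comparisons gave 0.2 for Igll1 and 0.3 for Cd79a.

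The genes with the most similar profiles over the 6 libraries were looked up. By the root mean square difference of gene-centred log2 values, the nearest to the early priming genes Dntt and Rag1 together were Tcf7l2 (0.18), Ctla2a (0.19) and Rab19 (0.20), of 11593 genes compared. That profile includes the single Rag1 value above 0, in WT replicate 1, and the nearest genes share a high value there: Tcf7l2 had 54.7, 112 and 116 in KO and 708, 371 and 318 in WT. The nearest to the mean of Vpreb1 and Igll1 was Klf2 (0.23), with 6309, 6896 and 6641 in KO and 6839, 6019 and 866 in WT, a likeness that the Igll1 value of 0 in WT replicate 3 shapes. The nearest to the mean of Cd79a, Cd79b and Blnk were Odf3b (0.08), Zfp763 (0.14) and Trp53i13 (0.14). These means mix members that differ, so Dntt, Blnk and Igll1 were also taken alone, a choice made after seeing the data. The nearest to Dntt was Myom1 (0.08), with 9.65, 45.2 and 32.8 normalised reads in KO and 215.2, 236 and 243 in WT. The nearest to Blnk was Pkia (0.09), with 35.4, 64.8 and 42.3 in KO and 351, 245.5 and 240.3 in WT. Igll1 had no match as close: its nearest was Gpr137c (0.67), with 184, 80.6 and 106 in KO and 39.8, 39.0 and 2.84 in WT. For Ebf1 and Pax5 there was no profile to compare.

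Marker lists of other cells that use some of these genes are given beside the members. Of 14 mature B cell markers 10 were tested, 6 fell and 0 rose. Summed levels were 4188 to 4657 in KO and 8618 to 12031 in WT. Cd74 made up the largest part of that difference, with means of 570 ± 161 in KO and 5037 ± 1729 in WT (SD, n = 3 each). The defining markers Ms4a1, Fcer2a and Cr2 were listed at 0 in every KO library and in 2, 2 and 1 of the 3 WT libraries, and Cd22 was at 0 in KO and at 28.1, 19.0 and 26.5 in WT. Of 10 plasma cell markers 9 were tested, 3 fell and 1 rose, with sums of 33008 to 37179 in KO and 24983 to 33057 in WT. Xbp1 held the largest share except in WT replicate 1, where Jchain stood at 12902 and Xbp1 at 12800. Jchain fell, with 78.2, 197 and 147 in KO and 12902, 1159 and 5138 in WT (log2 fold change −5.01, limma adjusted p = 0.00452). Sdc1, the gene of CD138, fell, with 34.3, 81.5 and 10.4 in KO and 508.8, 495.8 and 719 in WT. Xbp1 rose by 0.92 on the log2 scale.

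Plasmacytoid dendritic cells can carry Dntt and Rag gene products, and T cells use them in the thymus. Of 13 plasmacytoid markers 12 were tested, 7 fell and 1 rose, with sums of 10129 to 11323 in KO and 11849 to 12625 in WT. Siglech, their defining surface lectin, was at 0, 3.93 and 0 in KO and 32.8, 46.6 and 44.5 in WT. Of 12 T cell markers 9 were tested, 5 fell and 0 rose, with sums of 371 to 711 in KO and 1250 to 1717 in WT. Among those that fell, Trbc1, Trbc2 and Cd247 averaged 12.2, 5.94 and 14.8 in KO and 171, 60.8 and 83.2 in WT. Cd8a and Cd8b1 were at 0 throughout. Of 10 macrophage markers 3 fell and 0 rose, with sums of 7234 to 11008 in KO and 13457 to 20355 in WT. The part of these cells in the member values was not tested.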

How the data were processed

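RNA was poly(A) RNA and libraries used a VAHTS mRNA-seq v2 kit, as the labels' protocols say. The submitters' processing notes name HISAT2, StringTie, mm8 and mm10, without roles or versions. The authors deposited a signal per gene and library. Each value was a whole multiple of 1 step per library (100% of values, within 0.01), so the signal is counts over 1 size factor, and whole reads were recovered. In every library more genes stood at 4 than at 3 reads, so what a unit stands for is not known, and the floors cover counting error only. The intervals are those of limma and rest on the spread between libraries. All 37 mitochondrial genes were listed at 0. Coordinates were those of GENCODE M21 (GRCm38) for all 49035 gene IDs of equal version.

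KO and WT, 3 libraries each, were compared in limma 3.58.1 (R 4.3.3) on log2(value + 1) with an intensity trend, for genes with at least 1 in at least 3 libraries, two-sided. Alternatives included edgeR 4.0.16 and DESeq2 1.42.0 on recovered reads, and edgeR called 2496 genes lower and 2075 higher. Library pairs differed beyond sampling noise (chi-square per degree of freedom 38.0 to 209). The fit was tested on simulated data. The rule named members, Ppp2ca, up to 4 genes of smallest p per list and a set list. Members and lists were chosen with earlier results of these data known.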

Additional observations from a re-analysis of the deposited data

How the results depend on the processing

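Dntt, Blnk and Ppp2ca kept their direction and their call under all 18 alternatives, with log2 fold changes of −3.59 to −2.62, −2.86 to −2.20 and −0.78 to −0.46. The count of members lower in KO was 2 in every alternative except without KO replicate 3, where Cd79a passed too and it was 3, and 0 members were higher in any. Among the named genes, signs turned only for ones that were not called: Vpreb1 with quantile normalization (0.10), Ikzf1 with quantile normalization (−0.11) and edgeR (−0.00823), Btk with upper quartile scaling (0.019), and, with 1 library left out, Cd79b (−0.175 to 0.0524), Tcf3 (−0.211 to 0.0143), Ikzf1 (−0.0671 to 0.0535), Vpreb3 (−0.229 to 1.64) and Btk (−0.151 to 0.0791). Over all genes, 1617 to 2548 were lower and 978 to 1808 higher when 1 library was left out (1639 lower and 978 higher without KO replicate 3, 1617 lower without WT replicate 1, 1723 lower without WT replicate 3), and 1071 were higher without the intensity trend and 3198 with library quality weights. Without the trend 8 other priming genes and 5 other transcription factors were lower, and the factors numbered 5 to 8 without 1 library. The cause was not tested. The median log2 fold change over all tested genes was −0.02, and 0.08 with quantile normalization, which the 0.10 of Vpreb1 is to be read against. Same-numbered libraries did not deviate together (correlations −0.0234, −0.0107 and −0.0207). A lack of shared deviation cannot show whether the numbers pair the samples. With the replicate number as a block, 2157 genes were lower and 1705 higher, and 2 members were lower. Upper quartile scaling gave 2472 lower and 2464 higher genes. The low totals of Rag1, Ebf1, Pax5 and Vpreb3 limit what these depths can show.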
